A study of Homo sapiens with 4 samples.

Results

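The data are RNA-Seq gene counts for the zinc finger genes of chromosome 19 in OCI-AML3 cells. The genes were chosen by name and place: protein-coding genes on chromosome 19 with a symbol made of ZNF and a number, with or without a final letter. They number 246 of the 58037 genes in the count table. The rule of name and place used no measured value, but it was chosen with earlier results of these data known. OCI-AML3 is an established human AML cell line with a heterozygous NPM1 mutation, the allele edited in 1 condition. It also has a heterozygous DNMT3A mutation and a homozygous NRAS mutation, which both conditions shared. Cells were transfected with sgRNA Ctrl (labelled sgNeg, 2 libraries) or with sgNPM1A, a guide against the mutant NPM1 allele (mtNPM1 KO, 2 libraries), and harvested after 3 days. The comparison asks which of these genes differed in mRNA level once mtNPM1 had been edited. The edited cells were a bulk population of 1 cell line, so fewer cells expressing a gene and less RNA per cell cannot be told apart.

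Most zinc finger proteins encoded on chromosome 19 bind DNA through arrays of C2H2 fingers, and most carry a KRAB domain at the N-terminal end. The KRAB domain recruits TRIM28, which brings in the histone methyltransferase SETDB1 and heterochromatin protein 1 and so represses the bound site. Many of these proteins bind retrotransposons, and the genes lie in clusters that grew by repeated duplication in primates and other mammals.

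NPM1, the targeted gene, was measured at 1319 and 1385 CPM (counts scaled to library size) in the sgRNA Ctrl libraries and at 1189 and 1132 CPM in the mtNPM1 KO libraries. Its log2 fold-change was -0.22 ± 0.07 (SE), with a Benjamini-Hochberg adjusted p of 0.0360 in edgeR's quasi-likelihood test. These reads come from both alleles. Of 8 myeloid markers 7 were tested. PTPRC, CD33, SPI1, CEBPA and CSF3R lay between 81.4 and 676 CPM in each library, MPO was at 2.79 and 3.24 CPM and ITGAM at 0.747 and 0.811 CPM in sgRNA Ctrl, and KIT had at most 2 counts. SPI1, CSF3R, MPO and ITGAM were called higher with mtNPM1 KO. Of 9 markers of other cell types 6 had no count in any library and 2 more had at most 6 counts. COL1A2, a collagen gene of fibroblasts, had 27.5 and 28.6 CPM in sgRNA Ctrl and 13.0 and 9.33 CPM in mtNPM1 KO (log2 fold-change -1.33 ± 0.13, called lower). Summed, the 8 myeloid markers were at 1079 and 1109 CPM in sgRNA Ctrl and 1442 and 1447 CPM in mtNPM1 KO, and the 9 others at 27.6 and 28.8 against 13.2 and 9.4 CPM. The part of these changes in the zinc finger results was not tested. Library totals lay between 25069484 and 28276391 counts, and 3 counts, taken as the floor, equal 0.108 to 0.118 CPM, which covers counting error only.

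In promoters, the genes described here share some short sequences, so 5 are shown before the values. Promoter sequences came from RefSeq on GRCh38.p14, which held 216 of the 246 genes, and each line gives the 250 bases before the transcription start, 5′ to 3′ on the strand of the gene. ZNF440, ZNF486, ZNF549 and ZNF587 are shown as examples of genes that fell, from 3 separate clusters, and ZNF382 because it is the gene that rose. Capitals mark CCGGAAG (or CTTCCGG on the other strand), the core of ETS factor sites, TGACAG (or CTGTCA), the core of MEIS sites, and CACGTG, the E-box that MYC can bind. The positions are chr19:11814023-11814272 for ZNF440, chr19:20166964-20167213 for ZNF486, chr19:57527106-57527355 for ZNF549, chr19:57849609-57849858 for ZNF587 and chr19:36605063-36605312 for ZNF382, all on the + strand.
ZNF440: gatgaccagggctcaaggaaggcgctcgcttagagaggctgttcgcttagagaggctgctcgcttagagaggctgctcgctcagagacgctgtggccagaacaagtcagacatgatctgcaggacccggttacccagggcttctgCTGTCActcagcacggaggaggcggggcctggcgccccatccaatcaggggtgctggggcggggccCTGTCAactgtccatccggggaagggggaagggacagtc
ZNF486: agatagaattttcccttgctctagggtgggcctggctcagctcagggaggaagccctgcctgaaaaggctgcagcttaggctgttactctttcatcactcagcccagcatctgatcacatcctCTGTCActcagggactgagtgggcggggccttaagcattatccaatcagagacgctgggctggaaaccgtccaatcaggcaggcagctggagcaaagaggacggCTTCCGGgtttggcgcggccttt
ZNF549: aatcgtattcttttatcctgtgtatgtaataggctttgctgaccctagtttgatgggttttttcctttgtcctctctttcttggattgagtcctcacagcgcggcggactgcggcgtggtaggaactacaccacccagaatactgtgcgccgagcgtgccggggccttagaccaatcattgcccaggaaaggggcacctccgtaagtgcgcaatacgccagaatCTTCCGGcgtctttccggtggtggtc
ZNF587: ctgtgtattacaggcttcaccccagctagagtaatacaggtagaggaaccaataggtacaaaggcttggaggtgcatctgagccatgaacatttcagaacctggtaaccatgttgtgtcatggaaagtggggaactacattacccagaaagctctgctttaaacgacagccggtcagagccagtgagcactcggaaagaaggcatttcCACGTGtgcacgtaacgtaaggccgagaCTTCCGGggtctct
ZNF382: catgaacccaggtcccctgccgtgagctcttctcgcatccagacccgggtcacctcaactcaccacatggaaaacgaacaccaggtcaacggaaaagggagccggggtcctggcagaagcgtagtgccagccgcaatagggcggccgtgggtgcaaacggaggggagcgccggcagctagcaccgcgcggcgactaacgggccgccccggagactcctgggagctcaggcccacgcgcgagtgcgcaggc

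None of the searched words lay in the ZNF382 stretch. In the others, ZNF440 held the MEIS word at 2 places, ZNF486 held the MEIS word and the ETS word, ZNF549 the ETS word, and ZNF587 the ETS word and the E-box. Over the full 300 bases (250 before and 50 after the start, either strand), CCGGAAG was in 98 of the 216 promoters (45.4%), against 19.5% of the 10812 promoters of tested genes and 10.7% of 27305 promoters in all. TGACAG was in 34.3% of them, against 13.2% and 15.9%. The E-box CACGTG was in 4.17%, against 10.2% and 7.43%, and TATAAA in 1.85%, against 5.73% and 12%. The E2F word TTCCCGCC was in 4.63%, against 5.06% and 3.18%, and AAGATGGC, the core of YY1 sites, was in 6.48%, against 5.40% and 3.03%. The 216 include genes that were not tested. Among the 177 promoters of tested zinc finger genes, CCGGAAG was in 44.6%, TGACAG in 31.1%, CACGTG in 5.08% and TATAAA in 2.26%. Thus the ETS and MEIS words were more frequent in both sets than in promoters of all tested genes. The E-box and the TATA word were less frequent. These are counts of letters, with no test. Of the 88 places of CCGGAAG in promoters of tested zinc finger genes, 75% lay within 50 bases of the start. The share was 53.9% of the 3526 places in all 27305 promoters, whether the gene was tested or not. Among the genes that fell with mtNPM1 KO and had a promoter, 11 of 21 held CCGGAAG (52.4%) and 6 held TGACAG (28.6%), beside 43.9% and 31.6% of the 155 tested genes that were not called. CACGTG was in 1 of the 21 (4.76%), ZNF587, beside 5.16% of the 155. The 5 promoters shown were chosen after values were seen and do not represent these shares. A match of letters is a description and not a bound site.

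Of the 246 genes, 199 had counts high enough for a test. The other 47 had no count in any library (20 genes), a highest count from 1 to 9 (24 genes) or a highest count of 10 or more (3 genes, up to 13 counts for ZNF564). Summed over all 246 genes, the level was 2585 and 2622 CPM in sgRNA Ctrl and 2381 and 2299 CPM in mtNPM1 KO. Both mtNPM1 KO sums were thus below both sgRNA Ctrl sums. The median of the tested genes was 8.34 and 8.26 CPM in sgRNA Ctrl and 7.39 and 7.31 CPM in mtNPM1 KO. Between 213 and 218 of the genes had at least 1 count in a library, with no order between the conditions: sgRNA Ctrl had 215 and 213, and mtNPM1 KO 215 and 218.

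With mtNPM1 KO, 25 of the 199 tested zinc finger genes fell and 1, ZNF382, rose (adjusted p under 0.05 and a fold of at least 1.25). Over all 15718 tested genes, 10.3% were called lower and 10.5% called higher. The share that fell among the zinc finger genes, 12.6%, was therefore near that of all genes, whereas the share that rose was 0.503%. The median log2 fold-change of the 199 was -0.18, with the middle 50% of them between -0.33 and -0.01, against a median of 0.00 over all tested genes, whose middle 50% lay between -0.21 and 0.22. The log2 fold-change was negative in 152 of the 199 (76.4%) and in 7854 of all 15718 tested genes. Both mtNPM1 KO libraries were below both sgRNA Ctrl libraries for 100 of the 199 (50.3%), against 31.7% of all tested genes, and above both for 17 (8.54%), against 31.4%. The falls were small: the median fold of the 25 genes was 1.37, the smallest 1.26 and the largest 2.77, and a fold of 2 was passed by ZNF442 alone. With 2 libraries against 2, an exact permutation test of a single gene cannot go below p = 0.333 (two-sided), so the calls rest on the variance shared across genes. DESeq2 called 8 lower and 0 higher (at an unadjusted p under 0.05, 29 and 1), edgeR without mtNPM1 KO 2 called 7 lower and 0 higher, and edgeR without sgRNA Ctrl 1 called 16 lower and 2 higher.

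**Figure D1:**
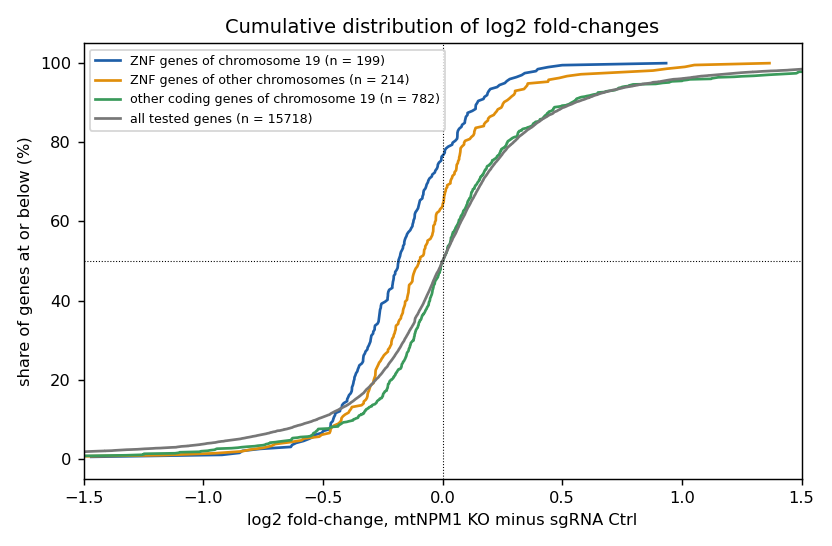
Cumulative share of genes (y axis, %) against the log2 fold-change of mtNPM1 KO over sgRNA Ctrl (x axis, shown from -1.5 to 1.5) for the tested zinc finger genes of chromosome 19, ZNF genes of other chromosomes, other coding genes of chromosome 19 and all tested genes. The line of the chromosome 19 zinc finger genes reaches 50% at -0.18, and that of all genes at 0.00.

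ZNF genes on other chromosomes and other coding genes of chromosome 19 were measured in the same fit. Of 262 ZNF genes elsewhere 214 were tested, 20 were called lower and 10 higher, and their median log2 fold-change was -0.10. Their share with a negative log2 fold-change was 63.6%. Both mtNPM1 KO libraries were below both sgRNA Ctrl libraries for 46.7% of the tested ZNF genes elsewhere and above both for 17.3%. The excess of genes below both over all tested genes was thus not particular to chromosome 19. Of 782 other coding genes of chromosome 19 that were tested, 67 were called lower and 90 higher, with a median of 0.00 and 49.9% negative. For 33.2% of them both mtNPM1 KO libraries were below both sgRNA Ctrl libraries, and for 33.8% above both. The zinc finger genes of chromosome 19 had lower counts than these (median 7.79 CPM, against 14.1 and 36.6). A range from 1.19 to 28.3 CPM, the 10th to the 90th percentile of the zinc finger genes, was chosen after the data were seen. Among the 6759 tested genes of any kind with a mean in it, 13.4% were called lower and 12.7% higher, and the median was 0.00. Among the 5335 coding genes in it, 15.1% were called lower and 12.6% higher, 52.7% were negative and the median was -0.02. The medians of these groups are descriptions, and no test of the difference between them was run.

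Within the zinc finger genes the shift was seen at each level. The median log2 fold-change was -0.18 for the 73 genes with a mean under 5 CPM, -0.18 for the 98 from 5 to 20 CPM and -0.17 for the 28 at 20 CPM or more. The share called differed between these levels: 3 of 73 (4.11%), 18 of 98 (18.4%) and 4 of 28 (14.3%) fell, beside 10.3% of all tested genes. The shares of all tested genes within these 3 level classes were not computed. Whether the difference is particular to zinc finger genes was not tested. The median SE was 0.21 in the lowest class and 0.09 in the highest. A log2 fold-change of the median size lies under the fold of 1.25 (0.32 on the log2 scale), so no gene with such a change could be called at any level.

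**Figure D2:**
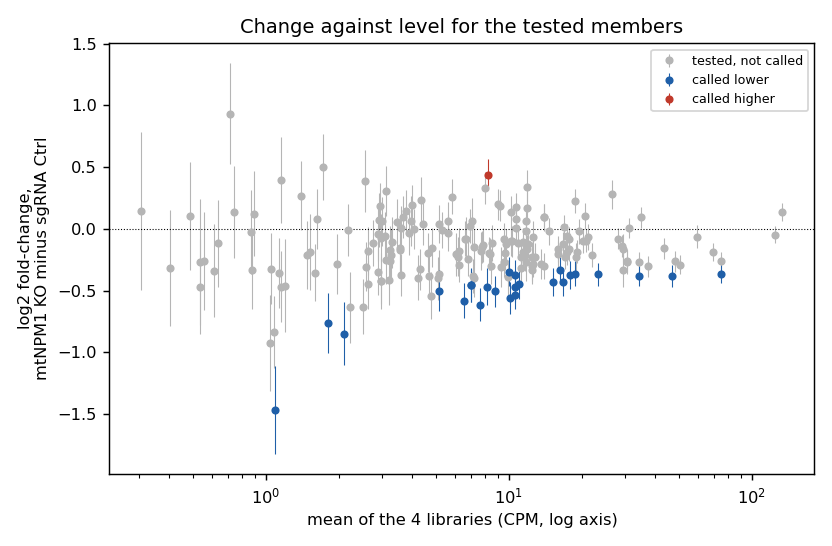
Log2 fold-change of mtNPM1 KO over sgRNA Ctrl with its SE (y axis) against the mean CPM of the 4 libraries (x axis, log scale) for the 199 tested zinc finger genes. The 25 genes called lower lie from 1.09 to 74.4 CPM, and the error bars are widest below 2 CPM.

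Among the called genes, the 3 with the largest falls lay in 1 cluster, from ZNF653 to ZNF791. They were also the 3 called genes with a mean under 5 CPM, where only large changes passed. In other clusters ZNF460 (-0.92 ± 0.39, adjusted p = 0.108) and ZNF221 (-0.84 ± 0.29, adjusted p = 0.0569) had estimates of similar size and were not called. The place of these falls was not tested. ZNF442 (ENSG00000198342.9, chr19:12345944-12373779) had 1.89 and 1.31 CPM in sgRNA Ctrl and 0.753 and 0.396 CPM in mtNPM1 KO. The libraries did not overlap, but the counts behind them were few (48, 34, 21 and 11). Its log2 fold-change was -1.47 ± 0.36 (adjusted p = 0.0109), and DESeq2 gave an adjusted p of 0.0656. The call of ZNF442 was also lost without mtNPM1 KO 2 and without sgRNA Ctrl 1. ZNF69 had 2.56 and 2.82 CPM in sgRNA Ctrl and 1.87 and 1.12 CPM in mtNPM1 KO (-0.85 ± 0.26, adjusted p = 0.0313). ZNF763 had 1.97 and 2.55 CPM in sgRNA Ctrl and 1.26 and 1.405 CPM in mtNPM1 KO (-0.76 ± 0.24, adjusted p = 0.0375). The mtNPM1 KO values of both genes lay below the sgRNA Ctrl values, although 45.4% of the 50-base words of ZNF763 occur in another gene and its annotated span overlaps that of ZNF69, so their reads are uncertain. In DESeq2 the adjusted p was 0.170 for ZNF69 and 0.264 for ZNF763. The call of ZNF69 was lost without mtNPM1 KO 2 (log2 fold-change -0.52) and without either sgRNA Ctrl library, and that of ZNF763 without either mtNPM1 KO library and without sgRNA Ctrl 2. ZNF442 overlaps ZNF563, whose log2 fold-change was 0.07 ± 0.22.

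ZNF253 and ZNF611 fell in each of the 13 alternative fits. ZNF253 (ENSG00000256771.2, chr19:19865830-19894674), first cloned from bone marrow as BMZF-1, had 8.69 and 9.65 CPM in sgRNA Ctrl and 6.28 and 5.73 CPM in mtNPM1 KO. Its log2 fold-change was -0.61 ± 0.14 (adjusted p = 0.00675). ZNF611 (ENSG00000213020.8, chr19:52702813-52735044) had 12.6 and 12.5 CPM in sgRNA Ctrl and 8.75 and 8.57 CPM in mtNPM1 KO. Its log2 fold-change was -0.53 ± 0.12 (adjusted p = 0.00563). Of the 50-base words, 7.70% of those of ZNF253 and 8.39% of those of ZNF611 occur in another gene. Both genes thus lie above the limit of 5% used below, and some of their reads are uncertain.

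ZNF121 (ENSG00000197961.11, chr19:9560329-9584504) had the smallest adjusted p, 0.00279, and was among the 5 zinc finger genes with the highest CPM. It had 83.7 and 83.9 CPM in sgRNA Ctrl and 65.8 and 64.4 CPM in mtNPM1 KO (log2 fold-change -0.36 ± 0.07). It has 9 fingers and no KRAB-type box in the translated transcript. ZNF580, a small protein with 3 fingers, had 49.9 and 56.3 CPM in sgRNA Ctrl and 42.8 and 38.6 CPM in mtNPM1 KO (-0.38 ± 0.09, adjusted p = 0.00915). It overlaps ZNF581, for which the log2 fold-change was -0.16 ± 0.09. Of the other 4 genes with the highest CPM, which is not per length, ZNF787 had 121 and 133 CPM in sgRNA Ctrl and 146 and 134 CPM in mtNPM1 KO (0.14 ± 0.08, adjusted p = 0.210). ZNF146, a protein made of fingers with hardly any other sequence, had 129 and 123 against 120 and 124 CPM (-0.04 ± 0.07, adjusted p = 0.666). Its libraries overlapped. ZNF865 had 71.5 and 75.4 against 66.3 and 62.8 CPM (-0.19 ± 0.07, adjusted p = 0.0875). ZNF444, which carries a SCAN domain, had 80.6 and 82.8 against 71.0 and 65.4 CPM (-0.26 ± 0.07, adjusted p = 0.0234) and was below the fold of 1.25. Another 4 genes passed the adjusted p and not the fold, namely ZNF574, ZNF562, ZNF791 and ZNF579, with log2 fold-changes from -0.30 to -0.26.

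ZNF382 (ENSG00000161298.16, chr19:36605313-36634114), a KRAB zinc finger repressor, was the gene that rose. It had 7.12 and 6.76 CPM in sgRNA Ctrl and 9.47 and 9.36 CPM in mtNPM1 KO, with no overlap. The log2 fold-change was 0.44 ± 0.13 (adjusted p = 0.0246 in edgeR and 0.146 in DESeq2), and the call was lost without mtNPM1 KO 1, without mtNPM1 KO 2 and without sgRNA Ctrl 2. ZNF529, whose annotated span overlaps it, had 9.83 and 10.3 CPM in sgRNA Ctrl and 12.1 and 10.7 CPM in mtNPM1 KO (0.17 ± 0.12, adjusted p = 0.324). The highest log2 fold-change of all, 0.93 ± 0.41 for ZNF114, rested on 8 and 17 against 21 and 31 counts and did not pass (adjusted p = 0.121).

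Among the other genes that fell, ZNF486, ZNF607, ZNF738, ZNF416, ZNF551, ZNF224 and ZNF549 had log2 fold-changes from -0.58 to -0.46. ZNF607 had 12.1 and 11.9 CPM in sgRNA Ctrl and 8.93 and 7.38 CPM in mtNPM1 KO (-0.56 ± 0.13, adjusted p = 0.00870). ZNF486 had 8.22 and 7.37 CPM in sgRNA Ctrl and 5.09 and 5.33 CPM in mtNPM1 KO (-0.58 ± 0.14, adjusted p = 0.0109). Neither gene overlapped between the conditions. ZNF224, a repressor first described at the aldolase A promoter and a partner of WT1, had 8.38 and 10.5 CPM in sgRNA Ctrl and 7.35 and 6.34 CPM in mtNPM1 KO (-0.47 ± 0.15, adjusted p = 0.0421). Its sgRNA Ctrl libraries differed from each other by more than those of ZNF607 or ZNF486, and both lay above the mtNPM1 KO libraries. Its call was lost in DESeq2 (adjusted p = 0.149), in limma-trend, without mtNPM1 KO 2 and without sgRNA Ctrl 2, where the log2 fold-change was -0.29. ZNF234, a neighbour of ZNF224, had 13.1 and 12.3 CPM in sgRNA Ctrl and 9.18 and 9.40 CPM in mtNPM1 KO (-0.45 ± 0.12, adjusted p = 0.0145). The remaining 10 genes that fell, ZNF816, ZNF440, ZNF8, ZNF414, ZNF627, ZNF587, ZNF766, ZNF480, ZNF43 and ZNF134, had log2 fold-changes from -0.45 to -0.33. ZNF416 was at -0.50 with both sgRNA Ctrl libraries and at -0.33, not called, without sgRNA Ctrl 1. Of the 26 called genes, ZNF253 and ZNF611 were called in each of the 13 alternative fits and the other 24 lost the call in at least 1. In each of the 25 genes both mtNPM1 KO libraries lay below both sgRNA Ctrl libraries. The calls were made from these same libraries and favor such genes, so this adds no support to them. Of the 26 called genes 4 (ZNF763, ZNF587, ZNF607 and ZNF8) share at least 20% of their 50-base words with another gene, so part of their reads could not be placed with certainty, and 15 overlap another annotated gene. The strand setting of the counting is not given in the sources used here, so reads of overlapping genes on opposite strands cannot be told apart.

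**Figure D3:**
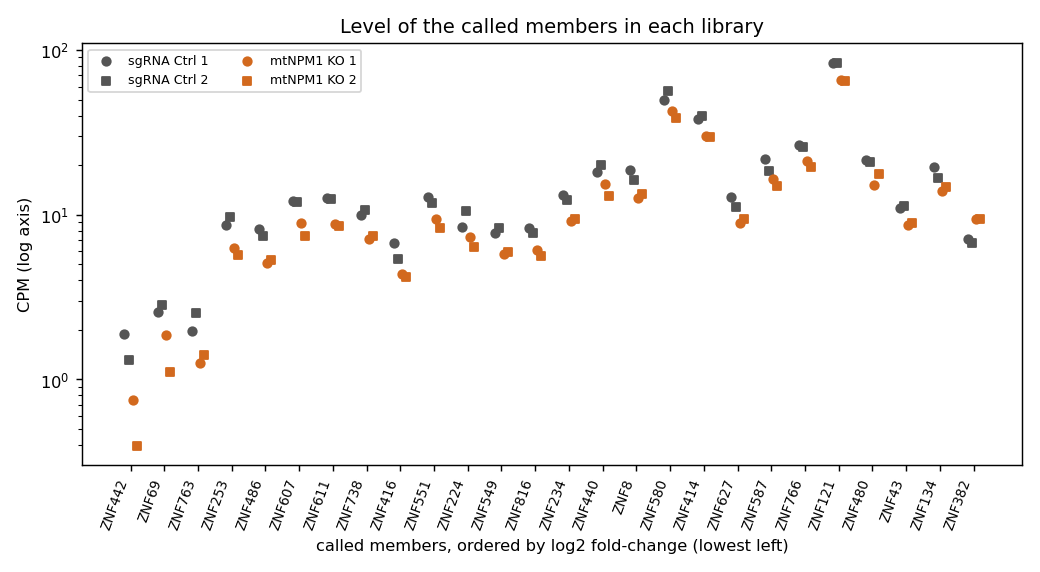
Level in CPM (y axis, log scale) of the 26 called zinc finger genes in each of the 4 libraries, ordered from the lowest log2 fold-change (x axis), with gray for sgRNA Ctrl, orange for mtNPM1 KO, circles for replicate 1 and squares for replicate 2. The mtNPM1 KO points lie below the sgRNA Ctrl points in 25 genes and above them in ZNF382. The genes were called from these same libraries.

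By position, the 246 genes formed 16 groups separated by more than 1 Mb from start to start, 9 of them with at least 5 genes (positions from RefSeq on GRCh38.p14). In 8 of these 9 groups the median log2 fold-change was below 0. The exception was the group nearest the end of the short arm, from ZNF554 to ZNF77 (chr19:2819868-2944971), with 4 of 5 genes tested, a median of 0.04 and none called. The lowest median, -0.27, was in the group from ZNF653 to ZNF791 (chr19:11483429-12633834), where 21 of 25 genes were tested, 16 were negative and 5 fell: ZNF442, ZNF69, ZNF763, ZNF440 and ZNF627. Just before it, from ZNF557 to ZNF846 (chr19:7069703-9786160), 13 of 15 genes were tested with a median of -0.11, and ZNF414 and ZNF121 fell.

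The group from ZNF101 to ZNF254 (chr19:19668153-24129968) had 24 of 37 genes tested, 20 of them negative. Its median was -0.18, and ZNF253, ZNF486, ZNF738 and ZNF43 fell. Both mtNPM1 KO libraries were below both sgRNA Ctrl libraries for 14 of the 24 and above for 0. On the long arm, the group from ZNF565 to ZNF573 (chr19:36182060-37779586) had 19 of 22 tested genes negative and a median of -0.22, and it held ZNF607, which fell, and ZNF382, which rose. The group from ZNF575 to ZNF296 (chr19:43530835-45076478), which holds the neighbours ZNF224 and ZNF234, had 18 of 21 tested genes negative and a median of -0.21. In the group from ZNF302 to ZNF792 (chr19:34675979-34964229) 5 of 5 genes were tested, 3 were negative and none was called, with a median of -0.09.

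The 2 largest groups lay toward the end of the long arm. From ZNF175 to ZNF331 (chr19:51571283-53580269), 29 of 39 genes were tested, 21 were negative and the median was -0.12, with falls of ZNF611, ZNF816, ZNF766 and ZNF480. From ZNF628 to ZNF446 (chr19:55476617-58489533), 50 of 59 genes were tested, 37 were negative and the median was -0.18, with falls of ZNF416, ZNF551, ZNF549, ZNF8, ZNF580, ZNF587 and ZNF134. The other 7 groups held 10 tested genes, none of them called, with a median of -0.07. Inside the spans of the 9 groups of at least 5 genes, 75 coding genes of other names were tested: 8 were called lower and 13 higher, 45.3% were negative and their median was 0.02, beside -0.19 for the 189 tested zinc finger genes of those groups. The values of the groups overlapped widely, and no test between groups was run.

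**Figure D4:**
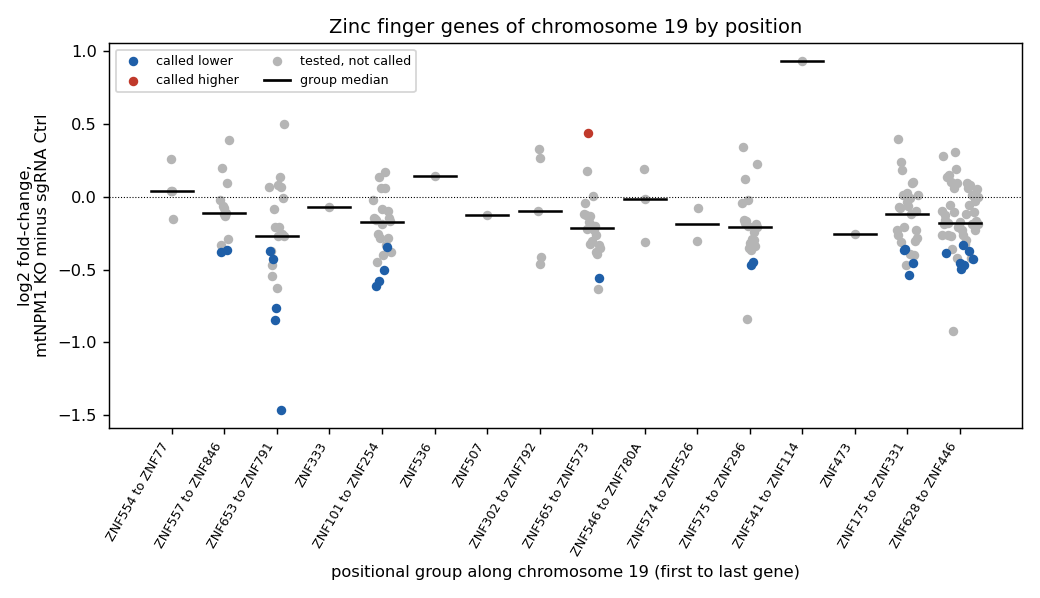
Log2 fold-change of mtNPM1 KO over sgRNA Ctrl (y axis) for each tested zinc finger gene, with the 16 positional groups in chromosomal order (x axis, first to last gene of the group); blue marks genes called lower, red the gene called higher, and black bars group medians. The falls are spread over 7 groups, and 8 of the 9 groups with at least 5 genes have a median below 0.

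The proteins differed widely in the rest of their make-up. Read from translated transcripts of 245 of the genes (for ZNF274 no open frame was read), they had from 1 to 36 C2H2 fingers with a median of 12. A KRAB-type box was found in 209 and none in 36, by a pattern that was widened after the first had found 179. Of the genes with the box 166 were tested, 21 fell and 1 rose, with a median log2 fold-change of -0.19. Of those without it 32 were tested, 4 fell and 0 rose (at an unadjusted p under 0.05 in edgeR, 3), with a median of -0.16. Genes encoding fewer than 10 fingers had a median of -0.16 (54 tested), those with 10 to 14 fingers -0.19 (86) and those with 15 or more -0.21 (58). The lower levels were thus seen whether or not the pattern found a KRAB-type box, and over the range of finger counts. A pattern can miss a box, so the 36 without a match may include KRAB proteins. Among the 126 tested genes with under 5% shared 50-base words, 14 fell and 1 rose and the median was -0.18, and among the 73 with more, 11 fell and 0 rose and the median was -0.20.

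Of the 12 genes listed for a role known from other work, ZNF224, ZNF253 and ZNF382 were called, 8 were tested and not called, and ZNF568 was not tested. ZNF91 and ZNF93 repress retrotransposons, SVA elements and LINE-1 respectively. ZNF91 had 9.87 and 11.5 CPM in sgRNA Ctrl and 9.87 and 10.0 CPM in mtNPM1 KO (log2 fold-change -0.10 ± 0.12, adjusted p = 0.603), so its libraries overlapped. ZNF93 had 19.04 and 18.1 against 17.3 and 15.9 CPM (-0.16 ± 0.10, adjusted p = 0.280). ZNF274, which binds other zinc finger genes and recruits SETDB1 there, had 10.9 and 13.4 against 10.9 and 10.5 CPM (-0.18 ± 0.13, adjusted p = 0.333).

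ZNF331, an imprinted gene, had 30.7 and 31.2 CPM in sgRNA Ctrl and 32.0 and 30.4 CPM in mtNPM1 KO, and the log2 fold-change of 0.01 ± 0.08 changed sign with the scaling. ZNF350, a partner of BRCA1, had 6.65 and 6.95 against 6.85 and 6.01 CPM (-0.08 ± 0.14). ZNF675, an inhibitor of TRAF6 signaling, had 8.22 and 7.99 against 7.21 and 7.42 CPM (-0.15 ± 0.13). The libraries of ZNF350 overlapped and those of ZNF675 did not. ZNF254, like ZNF253 cloned from bone marrow, had 7.59 and 8.49 against 6.21 and 6.16 CPM, and at -0.38 ± 0.14 its adjusted p was 0.0613, and it was called lower with library size only. ZNF419 had 5.47 and 7.45 against 5.96 and 5.26 CPM (-0.21 ± 0.17, adjusted p = 0.426), with overlap. ZNF568 was not tested, at 0.393 and 0.309 CPM in sgRNA Ctrl and 0.179 and 0.252 CPM in mtNPM1 KO.

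The cofactors through which KRAB zinc finger proteins repress were given by a list, of which 17 genes are reported and 17 were tested. CBX5, which encodes heterochromatin protein 1 alpha, rose: it had 85.9 and 83.8 CPM in sgRNA Ctrl and 111 and 111 CPM in mtNPM1 KO (log2 fold-change 0.39 ± 0.07, adjusted p = 0.00134). MORC2, an ATPase that compacts chromatin with the HUSH complex, fell: it had 89.3 and 88.2 CPM in sgRNA Ctrl and 69.7 and 70.4 CPM in mtNPM1 KO (-0.34 ± 0.07, adjusted p = 0.00382). The other 15 were not called, and the median of the 17 was -0.09. Over all 15718 tested genes, 10.3% were called lower and 10.5% higher. The list, with 1 call in each direction among 17 genes, was not above those shares. TRIM28, the common corepressor, had 1103 and 1043 CPM in sgRNA Ctrl and 968 and 956 CPM in mtNPM1 KO (-0.16 ± 0.07, adjusted p = 0.113), and its libraries did not overlap. SETDB1 had 70.4 and 68.3 against 62.7 and 67.0 CPM (-0.10 ± 0.07, adjusted p = 0.374).

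The chromatin remodelers of the NuRD complex moved in opposite directions below the fold of 1.25: CHD4 was at -0.24 ± 0.07 (adjusted p = 0.0217) and CHD3 at 0.26 ± 0.07 (adjusted p = 0.0176), which was called higher without sgRNA Ctrl 1 (0.33). The other heterochromatin protein 1 genes, CBX1 and CBX3, were at -0.16 ± 0.07 and 0.07 ± 0.06. The HUSH subunits MPHOSPH8, TASOR and PPHLN1 lay between -0.06 and 0.13. UHRF1, which maintains DNA methylation, was at -0.22 ± 0.10 (adjusted p = 0.133), at -0.03 without sgRNA Ctrl 1 and at -0.39, called lower, without sgRNA Ctrl 2. SUMO2, a modifier attached to TRIM28, was at -0.16 ± 0.06. The histone H3.3 chaperone genes ATRX and DAXX were at -0.10 ± 0.09 and -0.08 ± 0.07, the remodeler SMARCAD1 at -0.08 ± 0.08 and the SETDB1 partner ATF7IP at -0.09 ± 0.12. Of the genes in this paragraph, CHD4 and CHD3 alone passed the adjusted p.

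**Figure D5:**
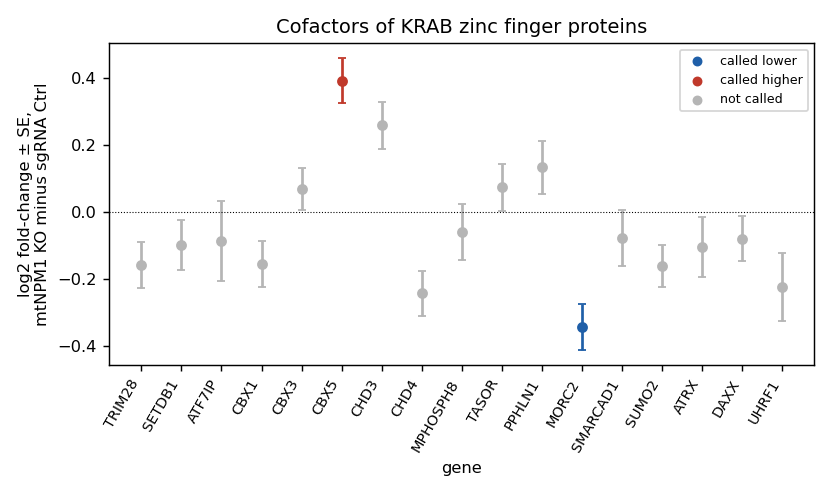
Log2 fold-change of mtNPM1 KO over sgRNA Ctrl with its SE (y axis) for the 17 cofactor genes of KRAB zinc finger proteins (x axis). CBX5 is called higher at 0.39, MORC2 called lower at -0.34, and the other 15 lie between -0.24 and 0.26.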

How the data were processed

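STAR and Samtools were used by the authors for mapping to hg38. They deposited a table of unnormalized counts, with Ensembl genes in rows and 4 libraries in columns. ERCC spike-ins had been added to the libraries. The counting program, annotation release and strand setting are not given in the sources used here, and 0 rows carry an ERCC name. The labels number the libraries of a condition 1 and 2, and the study calls them biological replicates.

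Here edgeR 4.0.16 (R 4.3.3) was fitted on the whole table: filterByExpr with a minimum count of 10, TMM normalization, robust quasi-likelihood F test, two-sided, Benjamini-Hochberg adjustment over 15718 genes. Calls required both a fold of 1.25 or more and an adjusted p under 0.05. CPM are TMM-scaled. Alternatives used DESeq2 1.42.0 and limma 3.58.1. Fits were run on simulated data with changes of a fold of at least 2 and a single dispersion for all genes. Such changes are larger than nearly all falls here, so the simulation does not bear on calls of this size. The genes, gene lists and tests were chosen with earlier results of these data known.

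Genes named are the 12 largest falls and rises called (1 gene rose), the 5 with the highest CPM, 12 genes with known roles, the called gene with the smallest adjusted p in each positional group, called genes with at most 3 counts in a condition (none met this) and the cofactor list. ZNF114, ZNF562, ZNF574, ZNF579, ZNF791, ZNF529, ZNF563, ZNF564, ZNF581, the other genes that fell and the genes in the promoter display were chosen after their values were seen. Promoters are RefSeq sequences on GRCh38.p14; the last 30 bases of 193 of 216 read in the sense of the gene's own transcripts and 0 in antisense. Fingers, KRAB-type boxes (KRAB pattern widened after the data were seen) and 50-base words shared between genes were read from GENCODE transcripts on GRCh37, from which no coordinates were taken. The list of cofactors and that of other cell types each held 1 gene that is not reported here.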

Additional observations from a re-analysis of the deposited data

How the results depend on the processing

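The median log2 fold-change of the tested zinc finger genes was below 0 in each of the 13 fits, from -0.22 with library size only to -0.15 without sgRNA Ctrl 2, and -0.17 with limma-trend. The counts called were less stable. DESeq2 called 8 lower and 0 higher, each of the 8 also called lower in edgeR. With no filter on low counts 33 genes were called lower and 2 higher, library size only gave 36 lower and 1 higher, and a fold of at least 2 left 1 lower and 0 higher. Genes with under 5% shared words, an alternative chosen after seeing the data, gave 14 lower because fewer genes were counted. Leaving out each library in turn gave from 7 to 24 lower, from 0 to 2 higher and medians from -0.21 to -0.15, and the single library then assumed to vary like those of the other condition. With the replicate number as a block (replicate block), 25 genes were called lower, 22 of them shared with the fit without it, and 1 higher. Deviations of same-numbered libraries had a correlation of -0.13 over all tested genes and of -0.52 over the 8856 with a mean above 10 CPM, nothing in the sources links the libraries by number, and a crossed replicate block, chosen after seeing the data, called 38 lower and 4 higher.

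Of the 28 zinc finger genes named by the rule and tested, the sign changed for 4, none of them called. ZNF331 was at -0.0312 with library size only and from -0.0246 to 0.0480 when a library was left out, ZNF91 from -0.205 to 0.0129, ZNF419 from -0.411 to 0.0371, and ZNF350 reached 0.0140 without mtNPM1 KO 2. Among the cofactors ATF7IP went from -0.236 to 0.0810 when a library was left out, MPHOSPH8 from -0.161 to 0.0408, and ATRX reached 0.0219 without sgRNA Ctrl 2. With 2 libraries per condition, the median SE was 0.14 over the tested zinc finger genes.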
